A study of Quercus x morisii and Quercus suber and Quercus ilex with 16 samples.

Results

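Cork of cork oak (*Quercus suber*) was compared with rhytidome of holm oak (*Quercus ilex* ssp. *rotundifolia*), the outer barks of the parent species of hybrids that were also sequenced. The comparison used 8 of the 16 libraries of the series, namely cork 87, 89, 90 and 91 and rhytidome 33, 67, 68 and 94, each from a different adult tree (n = 4 trees per bark). They were chosen by bark type alone, and the values are listed throughout in that order of trees. Outer bark was cut from the south side of the trunk at a time of active phellogen, and RNA was taken from the scraped inner face. Cork was the first, virgin layer of each cork oak, which had not been harvested. No tree was treated.

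Both barks are made by the phellogen, the cork cambium, which divides to give phellem cells on its outer side. Phellem walls are impregnated with suberin, a polyester of long-chain fatty acids, glycerol and ferulic acid, and the cells die when they are mature. In cork oak a long-lived phellogen builds a thick and continuous phellem, whereas rhytidome consists of successive thin periderms that enclose dead phloem. Scrapings of the inner face can also hold living phloem, and in bulk RNA fewer cells of a type cannot be told apart from less RNA per cell.

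Cork came only from cork oak and rhytidome only from holm oak, so bark type and species cannot be told apart. Reads of both species were mapped to the cork oak genome, and a low value in rhytidome can therefore be little RNA or poor mapping of holm oak reads. The sample sheets give cork RNA the higher integrity and the larger share of mapped reads, with the smallest share in rhytidome 94. The part of these differences in the results below was not tested. The values are regularized log2 counts (rlog), a scale on which 1 unit is a doubling and differences of loci with few counts are drawn toward 0. Counts were not used here, so the depth behind each value is unknown. Levels are compared between barks within a locus, not between loci, since rlog values are not divided by gene length.

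Of 47292 loci, 25572 averaged 1 or more on the rlog scale over the 8 libraries and were tested. Differentially expressed genes (DEGs) were those that changed by more than 1 log2 unit in either direction (log2FC, cork minus rhytidome) with an adjusted p below 0.01, and there were 6478 of them, or 25.3% of the loci tested. Before adjustment, 55.3% of the loci had a p below 0.05. Of the DEGs, 2706 were higher in cork (10.6% of the loci) and 3772 were lower (14.8%). In 6451 of the DEGs the 4 cork trees lay entirely above or below the 4 rhytidome trees, as they did at 45.8% of all loci tested (20.3% above and 25.4% below). The log2FC ranged from -8.74 to 8.93, and 690 DEGs were lower in cork by more than 4 log2 units and 242 higher by as much, on the deposited scale. At the other extreme, the 95% confidence interval of the log2FC lay within 1 unit of 0 at 6705 loci (26.2%). With each tree left out in turn, 5115 to 6101 DEGs were found. When the test required a fold change significantly above 1 log2 unit, 2196 DEGs passed (863 higher and 1333 lower in cork).

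The barks were well separated. On a principal component analysis, 63.4% of the variance fell on the first axis, which placed the cork trees between -146 and -126 and the rhytidome trees between 118 and 149. The second axis held 9.0% and set rhytidome 94 (-117) apart from rhytidome 67 (78.0), while the cork trees lay between -19.3 and 8.98. Trees of holm oak differed more among themselves. The median SD over 4 trees was 0.430 log2 units in rhytidome and 0.320 in cork, and the rhytidome SD was the larger one at 64.5% of the loci. Without rhytidome 94 the rhytidome median was 0.366 and the share 56.3%. Leaving out rhytidome 33, 67 or 68 instead gave medians of 0.406 to 0.415 and shares of 60.4% to 61.3%. In each case the rhytidome SD was taken over fewer trees than the cork SD. The Pearson correlation between pairs of trees, across loci, had a median of 0.964 in cork, 0.946 in rhytidome and 0.860 between barks.

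**Figure D1:**
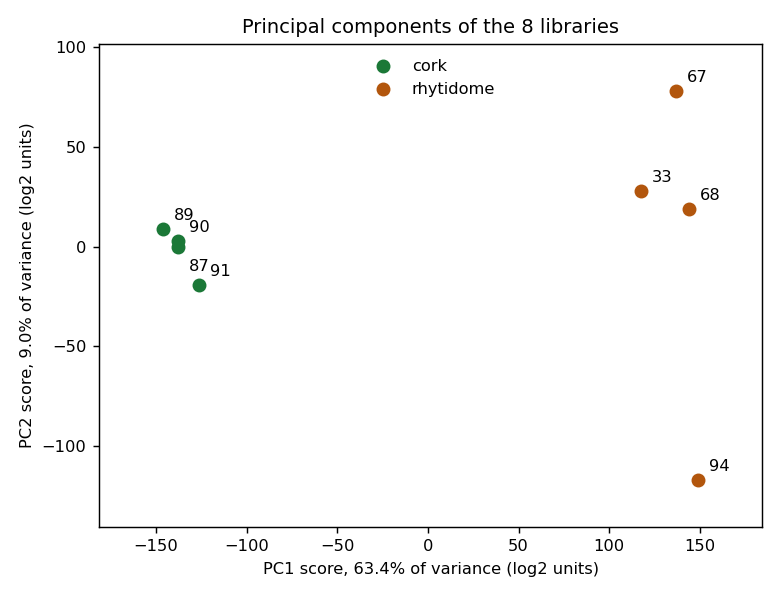
Scores of the 8 libraries (points, labelled by tree) on the first (x axis) and second (y axis) principal components, in log2 units. The cork trees lie together, between -146 and -126 on the first component, and rhytidome 94 lies at -117 on the second, away from the other rhytidome trees.

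The direction of the DEGs followed the expression level of the locus. Where the mean rlog lay between 1 and 3, cork was the higher bark at 15.0% of the DEGs (127, with 722 lower). The share was 33.0% between 5 and 7 (403 against 818), 62.4% between 9 and 11 (702 against 423) and 80.6% at 13 or more (145 against 35). This gradient depended on the scaling. The median locus stood 0.23 log2 units lower in cork libraries than in rhytidome libraries, with a median log2FC over the loci of -0.16. After quantile normalization, which gives all libraries the same distribution, 55.4% of the DEGs were higher in cork in place of 41.8%, and the share lay between 51.7% and 61.5% at every level. After median centring it was 54.6%, and the rise with the level remained, from 24.2% at 1 to 3 to 86.9% at 13 or more. The levels used in these bins come from the same values as the log2FC.

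**Figure D2:**
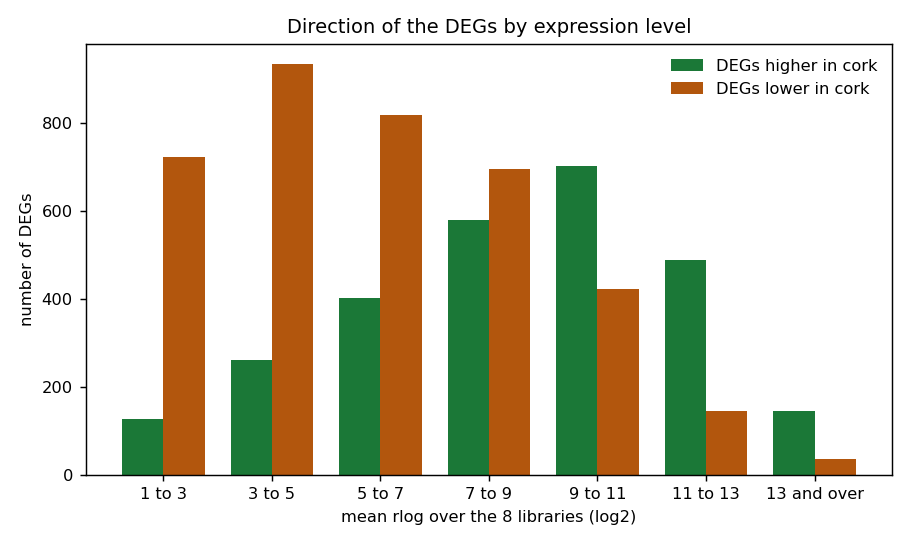
Number of DEGs (y axis) higher in cork (green) and lower in cork (brown) by the mean rlog of the locus over the 8 libraries (x axis, log2). DEGs lower in cork are in the majority at low levels (722 against 127 at 1 to 3) and DEGs higher in cork at high levels (145 against 35 at 13 and over), a gradient that was absent after quantile normalization.

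Gene names were available for 885 loci, mostly through their Arabidopsis matches, and 537 of these loci were tested. Among them were 82 loci that the study had selected from its own DEG clusters of these samples, so that their counts are not independent evidence of a direction. Of these 82 loci, 36 were higher and 21 lower in cork and 25 were no DEGs, with a median log2FC of 1.07. Another 6 loci were named from the study's list for real-time PCR. Names of the remaining loci come from part of the study's annotation table and are not a random sample. In that part, 428 unselected loci were tested, of which 53 were higher and 76 lower in cork (30.1% DEGs, against 25.3% of all loci), with a median log2FC of -0.30. The roles given below are those known from Arabidopsis unless another species is named.

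The selected genes of suberin monomer synthesis stood higher in cork at 6 of 8 loci (10.6% of all loci did), with a median log2FC of 3.07 over the 8. *GPAT5*, the acyltransferase that joins fatty acyl chains to glycerol, read 16.26, 16.46, 16.59 and 16.14 in cork and 13.24, 12.67, 12.49 and 12.54 in rhytidome (LOC112028279, log2FC 3.63 ± 0.18, adjusted p = 6.8e-06). All cork trees lay more than 2 units above all rhytidome trees, and this marker of phellem was well above 0 in both barks. *CYP86B1*, a cytochrome P450 that hydroxylates very long-chain fatty acids at their end, read 16.47, 17.06, 17.02 and 16.54 in cork and 13.61, 13.13, 12.90 and 13.56 in rhytidome (LOC112009780, log2FC 3.47 ± 0.21, adjusted p = 1.0e-05). *KCS2*, a ketoacyl-CoA synthase of chain elongation, read 15.37, 15.77, 15.77 and 15.40 in cork and 12.88, 12.20, 12.14 and 12.49 in rhytidome (LOC112030764, log2FC 3.15 ± 0.18, adjusted p = 9.3e-06). In both, the cork trees agreed closely and were far from the rhytidome trees.

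Feruloylation was represented by the acyltransferase *ASFT/FHT*, which attaches ferulic acid to the aliphatic monomers, at a pair of loci. LOC112007140 read 16.53, 17.32, 17.07 and 16.84 in cork and 14.36, 14.02, 13.53 and 13.92 in rhytidome (log2FC 2.98 ± 0.21, adjusted p = 2.0e-05). The rise was smaller at LOC112001733, with 15.71, 16.26, 16.21 and 15.75 in cork and 14.84, 14.12, 14.10 and 14.22 in rhytidome (log2FC 1.66 ± 0.21, adjusted p = 2.9e-04), and after quantile normalization its log2FC was 0.98, short of the threshold of 1. The fatty acyl-CoA reductases, which make the primary alcohols of suberin, were split. *FAR4* LOC112006016 read 11.95, 11.93, 12.88 and 11.59 in cork and 8.61, 9.09, 8.64 and 8.81 in rhytidome (log2FC 3.30 ± 0.26, adjusted p = 3.4e-05), with no overlap between the barks. The other *FAR4* locus, LOC112008996, overlapped (5.40, 6.54, 6.63 and 5.98 in cork and 5.82, 6.18, 5.79 and 5.64 in rhytidome) and its log2FC of 0.28 had a 95% interval of -0.52 to 1.07. *CER4/FAR3* LOC112006012 also overlapped, with log2FC 0.63 ± 0.35 (interval -0.16 to 1.41). Reads that map to more than 1 place had been left out, so values of loci that share a name, such as these, are uncertain wherever the copies share sequence, which was not examined.

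Beyond the selected genes, the list for aliphatic suberin synthesis held 3 further loci, none of them DEGs. They were the HXXXD-type acyltransferases LOC112036511 and LOC112022896 (log2FC -0.34 ± 0.47 and -0.26 ± 0.56) and the long-chain acyl-CoA synthetase LACS7 LOC111983222 (0.19 ± 0.26, interval -0.41 to 0.78). The Arabidopsis match of these acyltransferases acts on anthocyanins, and LACS7 is a peroxisomal enzyme of fatty acid breakdown, so none of the 3 is an established suberin gene. With them, 4 of the 7 tested loci of this list were higher in cork and 0 lower (10.6% and 14.8% of all loci), with a median log2FC of 1.66.

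**Figure D3:**
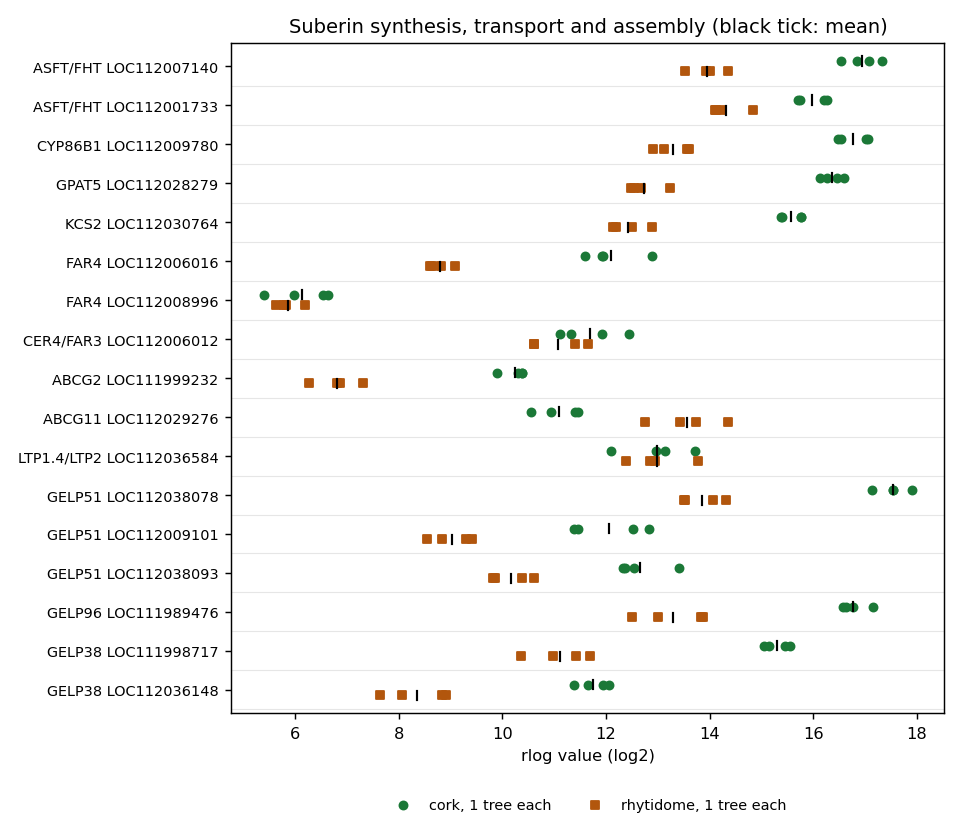
Values of each tree (points, rlog, log2 on the x axis) in cork (green circles) and rhytidome (brown squares) for the selected loci of suberin synthesis, transport and assembly, with the mean as a black tick. The barks do not overlap at *GPAT5* (log2FC 3.63) or at any of the 6 GELP loci, overlap at *LTP1.4/LTP2* and *CER4/FAR3*, and are reversed at *ABCG11* (-2.48).

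Polymerisation of suberin in the wall is carried out by GDSL esterases/lipases (GELPs). All 6 loci were DEGs higher in cork (10.6% of all loci were), with log2FC from 2.49 to 4.19 and a median of 3.44, and all 6 had been selected by the study. *GELP38* LOC111998717 showed the largest rise, with 15.16, 15.55, 15.45 and 15.06 in cork and 11.69, 10.37, 10.98 and 11.43 in rhytidome (log2FC 4.19 ± 0.27, adjusted p = 1.3e-05). The cork trees spanned less than 1 unit and the rhytidome trees more than 1. *GELP51* LOC112038078 read 17.14, 17.91, 17.54 and 17.54 in cork and 14.33, 13.50, 13.53 and 14.06 in rhytidome (log2FC 3.68 ± 0.23, adjusted p = 1.2e-05). *GELP96* LOC111989476 read 16.57, 17.14, 16.76 and 16.63 in cork and 13.87, 12.50, 13.01 and 13.83 in rhytidome (log2FC 3.48 ± 0.31, adjusted p = 5.4e-05). The remaining loci were *GELP38* LOC112036148 (log2FC 3.40 ± 0.30), *GELP51* LOC112009101 (3.03 ± 0.36) and *GELP51* LOC112038093 (2.49 ± 0.28).

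Transporters did not move in one direction. *ABCG2*, an exporter of suberin monomers, rose in cork, from 7.32, 6.81, 6.86 and 6.26 in rhytidome to 9.90, 10.31, 10.38 and 10.38 (LOC111999232, log2FC 3.43 ± 0.24, adjusted p = 1.9e-05). *ABCG11*, also called *WBC11* and required for export of cuticle and suberin lipids, was lower in cork, with 11.41, 10.94, 10.56 and 11.46 in cork and 13.43, 12.76, 14.36 and 13.73 in rhytidome (LOC112029276, log2FC -2.48 ± 0.34, adjusted p = 4.8e-04). All rhytidome trees stood above all cork trees. Further loci matched to *WBC11* were lower in cork too. LOC112038306 read 4.10, 4.02, 4.83 and 5.49 in cork and 10.15, 9.67, 11.58 and 10.50 in rhytidome (log2FC -5.87 ± 0.47, adjusted p = 3.5e-05), and LOC111989383 had a log2FC of -3.17 ± 0.55 (adjusted p = 0.0018). Over the 7 loci of the ABCG list, 1 was higher and 5 lower in cork (10.6% and 14.8% of all loci). These 5 include LOC112024077 (log2FC -5.21 ± 0.58) and LOC111991111 (-2.34 ± 0.32), and the listed locus that was no DEG, LOC112012025, was at 13.15, 13.98, 13.60 and 9.66 in rhytidome, where tree 94 alone was at the level of cork (9.71, 9.23, 10.02 and 10.16). A further locus, LOC111992443, named ATP-binding cassette 14 and missed by the wording of the list, was no DEG either (log2FC -2.68 ± 0.68, adjusted p = 0.011). This locus and the 5 of the 7 outside the selected genes come from lipid rows of the annotation table, which had been sorted by the study's clusters with those higher in rhytidome-type bark first, so nothing can be read from their common direction.

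Lipid transfer proteins, small secreted carriers of lipids, included 2 of 9 loci higher and 1 lower in cork (33.3%, against 25.3% of all loci), with a median log2FC of -0.93. The locus that was lower, LOC111987395, and most of those that were no DEGs come from the lipid rows sorted toward rhytidome-type bark, so the sign of the median cannot be read. LOC112009540 read 13.10, 13.37, 13.33 and 12.23 in cork and 10.54, 9.07, 9.68 and 10.34 in rhytidome (log2FC 3.10 ± 0.36, adjusted p = 2.2e-04) and LOC111994752 had a log2FC of 2.34 ± 0.28, while LOC111987395 fell (-2.27 ± 0.23, adjusted p = 1.0e-04). The barks were nearly equal at *LTP1.4/LTP2* LOC112036584, with means of 12.98 and 12.99 and an interval of the log2FC from -0.85 to 0.85. The trees spanned 12.10 to 13.72 in cork and 12.39 to 13.78 in rhytidome, so a difference smaller than that interval was not detectable.

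Transcription factors of the MYB family that switch on suberin genes were higher in cork at 7 of 14 selected loci and lower at 1 (10.6% and 14.8% of all loci). *MYB9* LOC112006609 read 13.33, 13.72, 13.53 and 13.40 in cork and 11.23, 10.43, 10.71 and 10.92 in rhytidome (log2FC 2.67 ± 0.18, adjusted p = 1.4e-05). *MYB93* was higher at both of its loci, with 12.58, 13.18, 12.85 and 12.79 in cork and 10.14, 8.92, 9.69 and 9.19 in rhytidome at LOC112030452 (log2FC 3.36 ± 0.26, adjusted p = 3.0e-05) and a log2FC of 2.17 ± 0.21 at LOC112033310. *MYB36*, which directs formation of the Casparian strip in the root endodermis, was higher at all 3 loci. LOC112023896 read 10.71, 10.76, 10.73 and 10.94 in cork and 8.85, 8.06, 8.002 and 6.97 in rhytidome (log2FC 2.81 ± 0.34, adjusted p = 2.6e-04), the cork trees being nearly identical. LOC112023410 and LOC112032137 had log2FC of 2.10 ± 0.24 and 1.95 ± 0.27.

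Copies of *MYB102* and *MYB84* differed among themselves. *MYB102* LOC111989495 rose (11.14, 12.51, 12.73 and 11.79 in cork and 9.85, 8.99, 9.41 and 9.89 in rhytidome, log2FC 2.50 ± 0.36, adjusted p = 6.2e-04), whereas LOC112033181 (log2FC 1.35 ± 0.39, adjusted p = 0.021) and LOC112004686 (0.45 ± 0.18, adjusted p = 0.065) did not pass. The former passed after quantile normalization (log2FC 1.78, adjusted p = 0.0080) or median centring (1.59, 0.0096), and without rhytidome 67 (1.63, 0.0099). The barks overlapped at 3 of the loci matched to *MYB84* (one of them, LOC112031843, described as *MYB63*), which had log2FC of 0.38, 0.74 and 0.52 and adjusted p from 0.057 to 0.41. *MYB84* LOC112010399 stood alone with the opposite direction, 2.31, 1.65, 3.05 and 3.30 in cork and 5.87, 7.81, 9.08 and 9.57 in rhytidome (log2FC -5.50 ± 0.79, adjusted p = 6.6e-04). It was low in every cork tree and varied by almost 4 units among the rhytidome trees. At the second *MYB9* locus, LOC112034724, the log2FC was 1.04 ± 0.34 (adjusted p = 0.034) and the barks overlapped.

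Of 6 selected loci of repressors, 3 were higher and 1 lower in cork (10.6% and 14.8% of all loci). *NAC058*, whose potato counterpart *StNAC103* represses suberin deposition, read 14.49, 14.81, 14.82 and 14.27 in cork and 11.80, 10.93, 11.21 and 10.92 in rhytidome (LOC112037487, log2FC 3.38 ± 0.22, adjusted p = 1.3e-05). *MYB4*, a repressor of phenylpropanoid genes, was higher in cork at LOC112009383 (log2FC 2.38 ± 0.28, adjusted p = 2.4e-04) and LOC112037069 (log2FC 1.496 ± 0.18, adjusted p = 2.7e-04) and lower at LOC111990470. The latter read 9.28, 9.29, 9.27 and 7.79 in cork and 11.05, 11.90, 11.89 and 12.53 in rhytidome (log2FC -2.93 ± 0.41, adjusted p = 5.4e-04). Cork 91 lay below the other cork trees, which were nearly identical. The last *MYB4* loci, LOC112023509 and LOC112035436, had low levels in both barks, from 0.66 to 4.36, and were no DEGs.

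**Figure D4:**
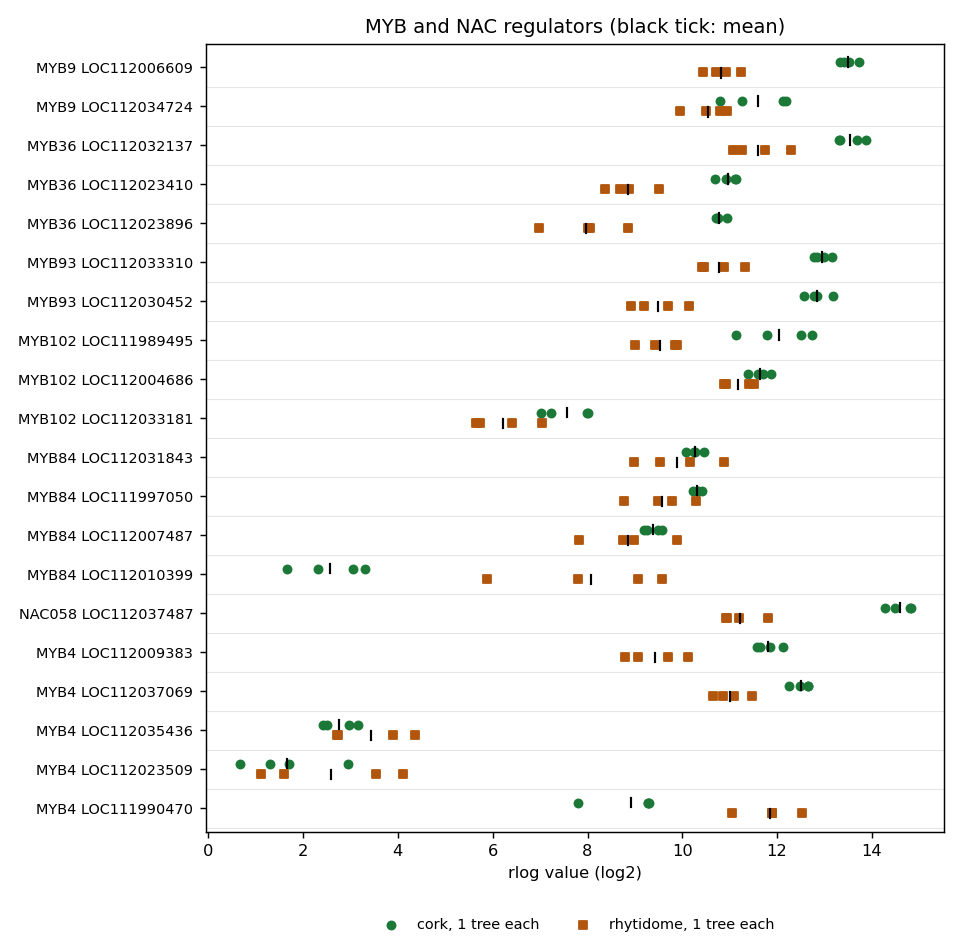
Values of each tree (points, rlog, log2 on the x axis) in cork (green circles) and rhytidome (brown squares) for MYB and NAC factors selected by the study, with the mean as a black tick. *MYB9* LOC112006609, *MYB93* and *MYB36* separate with cork above rhytidome, *MYB84* LOC112010399 and *MYB4* LOC111990470 (log2FC -5.50 and -2.93) separate the other way, and the other *MYB84* loci overlap.

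The 2 CYP94B cytochromes, which oxidise jasmonate hormones and have been tied to suberin, were both at higher means in rhytidome. *CYP94B3* LOC112005217 was a DEG (0.38, 0.88, 0.39 and 0.84 in cork and 3.83, 2.76, 2.77 and 3.22 in rhytidome, log2FC -2.52 ± 0.33, adjusted p = 4.1e-04) at a low level. *CYP94B1* LOC112020942 varied among the rhytidome trees (8.23, 7.23, 7.09 and 4.21) and did not pass (log2FC -2.15 ± 0.91, adjusted p = 0.08). Without rhytidome 94, the lowest of them, it passed with a log2FC of -2.97 (adjusted p = 0.0093).

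Laccases and class III peroxidases include the enzymes that polymerise lignin. Laccase 14 LOC112039871, a copper oxidase whose role in lignin was not tested, read 7.96, 9.28, 8.46 and 9.62 in cork and 14.14, 13.27, 14.95 and 15.16 in rhytidome (log2FC -5.55 ± 0.48, adjusted p = 5.0e-05). Rhytidome exceeded cork by more than 3 units in every pair of trees. Of 8 class III peroxidases tested, 1 was higher and 1 lower in cork, a share of 25.0% that is close to the 25.3% of all loci. *PER72* LOC112006365 read 11.76, 12.06, 12.97 and 11.88 in cork and 9.40, 8.97, 9.85 and 9.25 in rhytidome (log2FC 2.80 ± 0.29, adjusted p = 1.1e-04). *PER39*, which helps to place lignin in the Casparian strip, was close to 0 in cork (0.41, 0.47, 0.45 and 1.02) and ranged over 4 units in rhytidome (4.07, 3.86, 7.21 and 8.09), with log2FC -5.22 ± 0.94 (LOC112024643, adjusted p = 0.0021, and 0.0117 with no filter on low loci). Rhytidome 68 and 94 were the high trees. The 3 *PER3* loci had log2FC of 1.77, 1.93 and 2.63 with adjusted p from 0.037 to 0.095. At LOC111996084 the barks did not overlap, and it passed when all 16 libraries were fitted (adjusted p = 0.0075). Rhytidome 33 read only 2.53 at LOC112041098 where the other rhytidome trees were at 6.06 to 7.63.

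Genes of wall and organ growth were higher in cork at 7 of 10 selected loci and lower at 0 (10.6% and 14.8% of all loci). The largest rise was that of *EXT3*, an extensin, a structural wall protein needed for cell plate and wall assembly, with 15.05, 14.81, 14.73 and 15.05 in cork and 11.52, 11.16, 11.76 and 10.63 in rhytidome (LOC112039578, log2FC 3.64 ± 0.23, adjusted p = 1.2e-05). The xyloglucan endotransglucosylases *XTH30* LOC112025227 and *XTH28* LOC112005138, which cut and rejoin wall xyloglucan, had log2FC of 2.25 ± 0.27 and 2.11 ± 0.18. The endoglucanase GH9A1 LOC112027607 (log2FC 1.23 ± 0.12), the acetoacetyl-CoA thiolase *ACAT2* LOC111992289 (1.80 ± 0.22) and phospholipase *PLDα1* LOC112037256 (1.31 ± 0.12) showed smaller rises, and those of GH9A1 and *PLDα1* were 0.81 and 0.82 after quantile normalization, below the threshold. Further loci matched to *PLDα1* were DEGs lower in cork, LOC111994327 (log2FC -3.13 ± 0.68, adjusted p = 0.0055) and LOC112041165 (-2.36 ± 0.34, adjusted p = 6.3e-04). Both come from the lipid rows sorted toward rhytidome-type bark. *MAT3*, a methionine adenosyltransferase, read 15.51, 15.51, 15.20 and 15.02 in cork and 14.74, 13.71, 13.12 and 12.52 in rhytidome (LOC112032159, log2FC 1.79 ± 0.41, adjusted p = 0.0071). Leaving out any tree but rhytidome 33 took *MAT3* above the threshold of 0.01, with adjusted p from 0.0119 to 0.0226 and log2FC from 1.45 to 1.88 (cork 87, 89, 90 and 91 and rhytidome 67, 68 and 94 each left out). *RGP2* LOC112004750, *UGD* LOC111990917 and the expansin *EXPA4* LOC112017318 had log2FC of -0.09, 0.18 and 0.19, with intervals of -0.53 to 0.35, -0.15 to 0.51 and -0.42 to 0.80, all within 1 unit of 0, and the sign turned after quantile normalization for *UGD* (-0.21) and *EXPA4* (-0.20) and after median centring for *RGP2* (0.14).

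Among tubulins, the subunits of microtubules, 3 of 7 loci were DEGs higher in cork (10.6% of all loci were) and 0 were DEGs lower in cork (14.8%). Tubulin alpha-4 LOC112004381 read 16.10, 16.04, 16.35 and 16.47 in cork and 14.98, 13.76, 14.64 and 13.95 in rhytidome (log2FC 1.91 ± 0.26, adjusted p = 5.3e-04, and 1.18 with an adjusted p of 0.015 after quantile normalization). The beta-2 locus LOC112004091 read 14.95, 15.16, 15.85 and 15.06 in cork and 13.84, 13.17, 13.53 and 13.57 in rhytidome (log2FC 1.73 ± 0.22, adjusted p = 3.1e-04). That locus was named from the study's list for real-time PCR, where tubulin served as the reference gene. Alpha-4 LOC112040242 rose by 2.42 ± 0.48, but its adjusted p was 0.0101 to 0.0120 when cork 89, rhytidome 33 or rhytidome 68 was left out (log2FC 2.35 to 2.44). The other alpha-4 loci, of the same name and perhaps sharing reads, had log2FC from -2.15 to 0.36 and were no DEGs, although at LOC112017746 (log2FC -1.41 ± 0.40, adjusted p = 0.018) all cork trees lay below all rhytidome trees. Cellulose synthase-like D5 LOC112024806 rose as well (log2FC 1.79 ± 0.32, adjusted p = 0.0021, and 0.0110 with no filter on low loci). A few wall genes outside the naming rule were chosen after their values were seen. Beta-xylosidase 2 LOC112006849 read 12.35, 12.49, 12.43 and 12.57 in cork and 9.61, 9.46, 8.83 and 9.26 in rhytidome (log2FC 3.17 ± 0.17, adjusted p = 8.1e-06), and a protein of family UPF0497, to which the Casparian strip membrane proteins belong, read 15.51, 16.05, 15.91 and 15.73 in cork and 12.65, 12.20, 12.59 and 12.44 in rhytidome (LOC112023950, log2FC 3.33 ± 0.15, adjusted p = 5.2e-06). In the opposite direction, cellulase 2 LOC112029433 read 9.68, 10.15, 9.93 and 9.77 in cork and 14.39, 13.82, 12.66 and 13.64 in rhytidome (log2FC -3.74 ± 0.32, adjusted p = 4.6e-05).

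Of 6 selected loci of receptor kinases, 5 were lower in cork (14.8% of all loci were), with a median log2FC of -4.19. As they had been selected on these samples, their common direction is not independent evidence. *BAM3*, a receptor kinase of developing phloem, read 4.31, 3.90, 5.32 and 6.39 in cork and 11.15, 11.58, 12.20 and 10.90 in rhytidome (LOC112030870, log2FC -6.48 ± 0.54, adjusted p = 4.0e-05). Every rhytidome tree exceeded every cork tree by more than 4 units. The marker list for phloem matched no locus by name, so apart from *BAM3* the phloem content of the scrapings was not followed further, and its part in the other results was not tested. *FER* (*FERONIA*), the receptor of RALF peptides that restrains cell expansion, was lower in cork at both loci. LOC112029792 read 8.05, 7.52, 4.22 and 8.38 in cork and 10.66, 11.03, 12.25 and 12.25 in rhytidome (log2FC -4.51 ± 0.87, adjusted p = 0.003). Without rhytidome 68 its adjusted p was 0.0109 (log2FC -4.27). LOC112000806 read 6.02, 4.85, 2.80 and 3.43 in cork and 12.65, 6.74, 12.38 and 11.63 in rhytidome (log2FC -6.58 ± 1.305, adjusted p = 0.0034), where rhytidome 67 stood close to the highest cork tree. At this locus the adjusted p was 0.0105 to 0.0121 without cork 90, cork 91, rhytidome 33, rhytidome 68 or rhytidome 94 (log2FC -6.32 to -5.98).

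*SOBIR1*, a co-receptor in immunity and cell death that also acts in organ abscission, was lower in cork at both loci. LOC111990511 read 8.10, 8.004, 9.42 and 9.75 in cork and 11.96, 12.07, 13.56 and 13.17 in rhytidome (log2FC -3.87 ± 0.50, adjusted p = 3.8e-04) and LOC112013898 read 8.12, 8.23, 9.33 and 9.10 in cork and 11.31, 11.43, 12.86 and 12.51 in rhytidome (log2FC -3.33 ± 0.42, adjusted p = 3.1e-04). In each bark the same pair of trees was high at both loci, cork 90 and 91 and rhytidome 68 and 94. *HERK1*, a relative of *FER* that promotes growth, was the receptor higher in cork, with 12.58, 12.42, 12.92 and 13.29 in cork and 11.46, 11.34, 11.31 and 11.39 in rhytidome (LOC112000774, log2FC 1.43 ± 0.18, adjusted p = 3.1e-04). The ligand gene *RALF1* LOC111992557, named after its value was seen, was also higher in cork by 1.08 ± 0.18 (adjusted p = 0.0014).

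**Figure D5:**
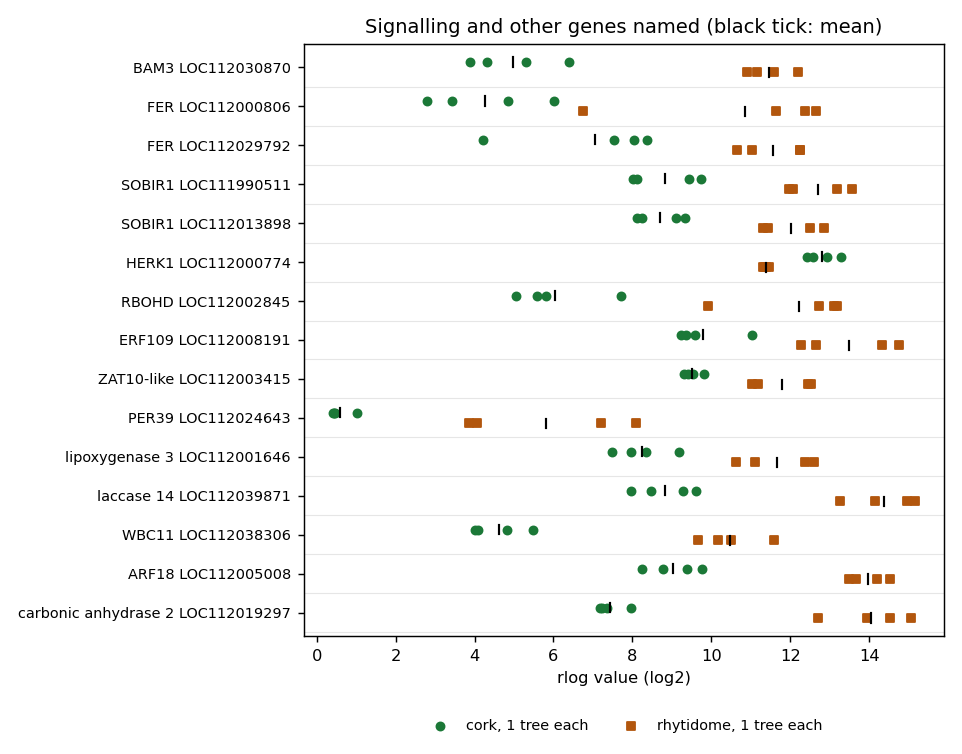
Values of each tree (points, rlog, log2 on the x axis) in cork (green circles) and rhytidome (brown squares) for receptor kinases, oxidative burst and jasmonate genes and some of the named DEGs with the largest contrasts, with the mean as a black tick. *BAM3* (log2FC -6.48) separates the barks by more than 4 units, *HERK1* (1.43) is the receptor kinase higher in cork, and rhytidome trees spread widely at *FER* LOC112000806, *RBOHD* and *PER39*.

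From the study's own lists of chosen genes, some tied to oxidative and stress responses were lower in cork. *RBOHD*, the NADPH oxidase that produces the oxidative burst, read 5.80, 5.05, 5.59 and 7.71 in cork and 12.71, 9.91, 13.18 and 13.11 in rhytidome (LOC112002845, log2FC -6.19 ± 0.81, adjusted p = 4.0e-04). Rhytidome 67 was more than 2 units below the other rhytidome trees and still above all cork trees. *ERF109* (*RRTF1*), a redox-responsive transcription factor, read 9.36, 9.22, 9.59 and 11.04 in cork and 12.27, 12.64, 14.76 and 14.32 in rhytidome (LOC112008191, log2FC -3.70 ± 0.62, adjusted p = 0.0015, and 0.0101 with no filter on low loci), and a *ZAT10*-like zinc finger gene, LOC112003415, read 9.32, 9.80, 9.54 and 9.42 in cork and 11.03, 11.17, 12.51 and 12.44 in rhytidome (log2FC -2.27 ± 0.35, adjusted p = 9.6e-04). The jasmonate list, from lipoxygenase to signalling, held 10 tested loci, 5 of them lower and 0 higher in cork (14.8% and 10.6% of all loci), with a median log2FC of -2.82. Lipoxygenase 3 LOC112001646 read 7.49, 7.96, 8.34 and 9.18 in cork and 10.62, 11.10, 12.37 and 12.59 in rhytidome (log2FC -3.43 ± 0.50, adjusted p = 7.3e-04), and lipoxygenase 2 LOC111990533 read 9.38, 9.03, 9.61 and 8.99 in cork and 11.48, 11.99, 12.29 and 12.72 in rhytidome (log2FC -2.87 ± 0.26, adjusted p = 6.6e-05). Rhytidome 68 and 94 were the high trees at *ERF109*, the *ZAT10*-like gene and lipoxygenase 3 alike. All 10 come from the sorted lipid rows of the annotation table, so their direction was in part set by that order. The same holds for the 89 lipid loci tested, with 45 lower and 0 higher in cork (14.8% and 10.6% of all loci).

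The list for pathogenesis-related proteins held 8 tested loci, 7 of which are of the chitinase family, most with an Arabidopsis match that acts in cellulose assembly and not in defence. Of the 8 loci, 3 were lower in cork (37.5%, against 14.8% of all loci) and 0 higher. A chitinase of that match, LOC112019269, read 4.04, 3.53, 3.05 and 4.04 in cork and 7.20, 9.18, 8.81 and 7.22 in rhytidome (log2FC -4.44 ± 0.53, adjusted p = 2.5e-04), and a CAP-domain protein, LOC111995890, read 8.81, 8.88, 9.29 and 9.70 in cork and 12.87, 13.21, 13.13 and 11.71 in rhytidome (log2FC -3.56 ± 0.34, adjusted p = 8.4e-05). The small heat shock protein *HSP21* LOC112008682 was lower in cork (log2FC -3.05 ± 0.28, adjusted p = 6.9e-05). Of 4 metacaspase 1 loci, proteases tied to cell death, LOC111993971 (singled out after its value was seen, with a mean rlog under 5) was lower in cork (log2FC -4.55 ± 0.70), and the others had log2FC from -0.63 to 0.60 and were no DEGs.

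Auxin response factors were lower in cork at all 3 loci of their list (14.8% of all loci were lower), of which *ARF6* and *ARF2* had been selected by the study on these samples. *ARF18* LOC112005008 read 9.76, 8.23, 9.37 and 8.78 in cork and 13.50, 14.52, 14.19 and 13.67 in rhytidome (log2FC -4.94 ± 0.35, adjusted p = 1.9e-05). *ARF6*, which acts in periderm development, read 13.17, 12.78, 13.26 and 13.26 in cork and 14.83, 15.32, 15.15 and 14.29 in rhytidome (LOC112032136, log2FC -1.78 ± 0.22, adjusted p = 3.1e-04), and *ARF2*, a repressor of cell division and organ growth, read 12.98, 12.85, 12.97 and 13.14 in cork and 14.29, 14.68, 14.71 and 14.44 in rhytidome (LOC111990207, log2FC -1.55 ± 0.12, adjusted p = 3.3e-05). An AUX/IAA gene, of the repressors that auxin removes, was among the 10 largest falls of named DEGs that averaged 5 or more, with 6.99, 6.97, 7.03 and 7.53 in cork and 12.12, 12.83, 12.71 and 11.58 in rhytidome (LOC112037337, log2FC -5.18 ± 0.28, adjusted p = 8.1e-06). Also lower were both *MYB5* loci, LOC112003598 (log2FC -4.28 ± 0.27, adjusted p = 1.2e-05) and LOC112035506 (log2FC -1.76 ± 0.30, adjusted p = 0.0015), and 1 of 3 FRIGIDA-like loci, LOC111986594 (log2FC -2.06 ± 0.28). The other FRIGIDA-like loci, LOC112034633 and LOC112017830, had log2FC of -0.98 ± 0.42 and -0.35 ± 0.16, and the latter became a DEG after quantile normalization (log2FC -1.03, adjusted p = 4.7e-04).

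Genes of meristems and cambium had no common direction, with 4 of 14 selected loci higher and 5 lower in cork (10.6% and 14.8% of all loci). *WOX4*, a homeobox gene of cambial and phellogen cells, read 11.93, 10.85, 11.68 and 12.21 in cork and 10.42, 9.91, 9.91 and 10.26 in rhytidome (LOC111988759, log2FC 1.55 ± 0.28, adjusted p = 0.0021, and 0.0115 with no filter on low loci). *AIL6*, an AINTEGUMENTA-like factor of dividing tissue, read 8.35, 9.50, 8.97 and 9.66 in cork and 7.05, 6.60, 6.80 and 5.57 in rhytidome (LOC112018242, log2FC 2.62 ± 0.40, adjusted p = 8.5e-04), and its relative *AIL5* LOC112025300 had no overlap between the barks but an adjusted p of 0.034 (log2FC 1.10 ± 0.36). On the rhytidome side were the KNOX gene *KNAT1* LOC112015571, with 12.44, 12.14, 12.53 and 12.43 in cork and 13.93, 14.28, 14.25 and 13.98 in rhytidome (log2FC -1.72 ± 0.13, adjusted p = 2.3e-05), and both loci of *SHR*, which patterns the endodermis. *SHR* LOC112039835 read 0.92, 2.14, 1.47 and 1.42 in cork and 5.83, 5.22, 5.11 and 5.23 in rhytidome (log2FC -3.86 ± 0.37, adjusted p = 7.8e-05) and LOC112020835 had a log2FC of -2.92 ± 0.30. *LBD1* LOC111995183 was lower in cork at a low level, with 1.00, 1.02, 1.01 and 1.00 in cork and 2.37, 2.25, 2.59 and 2.97 in rhytidome (log2FC -1.54 ± 0.27, and -0.64 with an adjusted p of 0.052 after quantile normalization). The cork values were nearly identical, as at loci with almost no counts. The standard error therefore says little of the spread between cork trees.

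The loci of *LBD4*, a boundary gene of cambium and phloem, had opposite directions, LOC111997151 higher (9.23, 9.80, 9.82 and 8.91 in cork and 8.28, 7.16, 7.72 and 8.55 in rhytidome, log2FC 1.51 ± 0.34, adjusted p = 0.0064) and LOC112038775 lower (7.02, 8.02, 8.05 and 7.28 in cork and 8.40, 9.999, 9.95 and 9.47 in rhytidome, log2FC -1.86 ± 0.40, adjusted p = 0.005) in cork. Both were near the threshold. Without cork 87, 89 or 90 or rhytidome 67 or 68 the former had adjusted p of 0.0122 to 0.0209 (log2FC 1.26 to 1.58), and without cork 87 or 91 or rhytidome 67, 68 or 94 the latter had 0.0132 to 0.0164 (log2FC -1.85 to -1.67). *LBD41* LOC112037478 passed narrowly (log2FC 1.19 ± 0.29, adjusted p = 0.0096) and lost the call when any tree but rhytidome 33 was left out (cork 87, 89, 90 and 91 and rhytidome 67, 68 and 94), with adjusted p of 0.0159 to 0.0287 and log2FC from 0.96 to 1.27. *STM*, *PTL*, *SVP* and *HB-8* had log2FC of -0.66, -0.53, -0.27 and 0.52 and were no DEGs. The interval was -0.71 to 0.16 for *SVP* LOC111992586 and 0.01 to 1.04 for *HB-8* LOC112029705.

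Among named loci that averaged 5 or more, the largest rise in cork was that of a DC7.1-like glycine-rich protein, with 15.87, 15.50, 15.35 and 16.29 in cork and 8.20, 7.51, 8.45 and 8.50 in rhytidome (LOC112034238, log2FC 7.59 ± 0.27, adjusted p = 4.2e-06). No rhytidome tree came within 6 units of a cork tree. The locus has no Arabidopsis match and carries a name only from the study's list for real-time PCR. It was followed by *CHR31*, a chromatin remodelling factor of the RNA-directed DNA methylation pathway, with 8.46, 9.61, 9.65 and 9.37 in cork and 3.75, 2.88, 3.94 and 3.41 in rhytidome (LOC112002935, log2FC 5.77 ± 0.37, adjusted p = 1.3e-05). The other loci of the 10 largest rises outside the suberin and wall groups were a 2-oxoglutarate-dependent oxygenase, LOC112016434 (log2FC 3.72 ± 0.45), the ovate family protein *OFP12*, a transcriptional repressor, LOC112017868 (3.70 ± 0.33), the N-glycan mannosyltransferase homolog *ALG12* LOC111993315 (3.64 ± 0.57) and the ABCB transporter P-glycoprotein 11 LOC112005047 (3.54 ± 0.27). Of the other loci matched to P-glycoprotein 11, LOC111996618 and LOC111997738 were lower in cork (log2FC -2.18 and -1.99). At *ALG12* the cork trees were nearly identical (8.58 to 8.68), while the rhytidome trees ranged from 3.54 to 6.45.

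Among named loci that averaged 5 or more, the largest fall was that of carbonic anhydrase 2, an enzyme that interconverts CO2 and bicarbonate, with 7.24, 7.96, 7.19 and 7.35 in cork and 14.52, 12.69, 13.95 and 15.05 in rhytidome (LOC112019297, log2FC -6.62 ± 0.45, adjusted p = 1.6e-05). Most extreme loci had no name. Of the 100 largest rises among DEGs at this level 2 were named, and of the 100 largest falls 5. From the list of 7 loci that the study had chosen for real-time PCR, an aspartyl protease, LOC111989591, was higher in cork (log2FC 1.57 ± 0.17, adjusted p = 1.5e-04). A regulatory beta subunit of the SNF1-related protein kinase from that list, LOC111986784, was no DEG (interval -0.13 to 0.55). A locus described as a UDP-glycosyltransferase, whose Arabidopsis match is the granule-bound starch synthase that makes amylose, read 11.31, 10.80, 10.37 and 10.54 in cork and 15.32, 16.40, 16.30 and 14.72 in rhytidome (LOC112005619, log2FC -4.93 ± 0.38, adjusted p = 3.0e-05). Among named loci outside the rule, singled out after seeing their values, *BAG6*, a co-chaperone tied to stress and cell death, read 11.22, 11.07, 10.82 and 10.38 in cork and 14.42, 15.35, 14.88 and 14.80 in rhytidome (LOC112010934, log2FC -3.99 ± 0.23, adjusted p = 9.2e-06), with cork and rhytidome separated by more than 3 units. Both named loci of photosystem proteins, markers of green cells, were lower in cork (log2FC -1.64 ± 0.25 at LOC112017872 and -2.32 ± 0.38 at LOC112037411), and their part in the other results was not tested.

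Some loci were near 0 in one bark. With an rlog under 1 in all 4 trees of a bark and of at least 5 in all 4 of the other, 12 loci were near 0 in cork and 3 in rhytidome, none of which carried a name here. Taken as examples after seeing the values, LOC111997373 was at 0.91, 0.98, 0.96 and 0.91 in cork and 6.97, 6.89, 6.95 and 6.88 in rhytidome, and LOC112005281 was at 6.42, 7.33, 7.66 and 5.14 in cork and -0.02, -0.06, 0.04 and 0.36 in rhytidome. Values near 0 are those of loci with almost no counts, and for rhytidome little RNA and unmapped holm oak reads cannot be told apart.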

How the data were processed

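RNA of the scraped inner face of outer bark was sequenced in 16 libraries, of which the 8 of the parent species were compared (4 trees per bark, grouped by their labels). Per the labels and methods, the authors checked reads with FastQC, trimmed them with Trimmomatic (0.40), used GSNAP to align all libraries, holm oak included, to the CorkOak1.0 assembly, kept unique concordant pairs and counted them with HTSeq (0.11.1). Cufflinks (2.2.1) is also named. Whether counting used strand is not stated in these sources. The deposited values are regularized log2 counts (rlog) that the authors made with DESeq2 (1.38.3) over all libraries. They carry no depth, so no count test was run, and p-values measure the spread between trees only.

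Loci that averaged 1 or more over the 8 libraries were tested with limma 3.58.1 in R 4.3.3 (a mean per bark, empirical Bayes with a trend, Benjamini-Hochberg adjustment over 25572 loci, two-sided). DEGs changed by more than 1 log2 unit with an adjusted p below 0.01. Every adjusted p in the text is from limma, and ± is the standard error of the log2FC. The fit was tested on simulated data. Principal components used the centred rlog values. Alternatives changed the filter, variance model, library weights, scaling, thresholds and libraries.

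Loci were named only through the study's supplementary tables, mostly by Arabidopsis match, and the values of those tables were not used. No sequence or coordinate was used. Named were all loci of the study's lists of candidate genes, the 10 largest rises and 10 largest falls among named DEGs with a mean rlog of at least 5 and no overlap, and up to 3 DEGs per direction of each of 39 lists with a mean rlog of at least 5, plus up to 3 non-DEGs of the suberin list. Of the 39 lists, 12 matched no locus (among them the phloem, xylem, cell cycle and ribosome lists), 1 (flavonoid and tannin synthesis) matched a locus that was not tested, 17 had 1 to 4 loci tested and 9 had more. Members and lists were chosen with earlier results of these data known.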

Additional observations from a re-analysis of the deposited data

Results flagged for a closer look

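In 9 of 230 groups of 4 trees tested over the named loci, 1 tree stood so far from the other 3 that its gap exceeded the 95% limit of Dixon's test. Chance flags about 1 group in 20, so this number is not above what chance gives. Cork 91 accounted for 3 of the 9. It read 7.79 at *MYB4* LOC111990470 (the other cork trees 9.27 to 9.29), 1.02 at *PER39* LOC112024643 (0.41 to 0.47) and 7.53 at the AUX/IAA locus LOC112037337 (6.97 to 7.03). Cork 87 read 9.90 at *ABCG2* LOC111999232 (10.31 to 10.38), and cork 90 read 6.64 at the HXXXD-type acyltransferase LOC112036511 (5.80 to 5.87). In rhytidome, tree 33 read 14.84 at *ASFT/FHT* LOC112001733 (the other trees 14.10 to 14.22), tree 67 read 9.91 at *RBOHD* LOC112002845 (12.71 to 13.18), and tree 68 read 11.42 at *PTL* LOC111994212 (10.45 to 10.59) and 5.20 at the HXXXD-type acyltransferase LOC112022896 (2.94 to 3.18).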

How the results depend on the processing

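No paired analysis was possible because the barks share no replicate numbers. The count of DEGs was 2196 under a test against a log2FC of 1, and 4475 to 8895 under the other alternatives with all 8 libraries. Under the test against 1, the gene lists and the loci selected by the study together held 51 DEGs in place of 84. With a tree left out it was 5115 to 6101. The share of DEGs higher in cork (41.8%) turned into a majority with quantile normalization (55.4%), with median centring (54.6%) and among loci that averaged 5 or more (52.2%). The shares within level bins under these scalings were an alternative chosen after seeing the data. The first principal component carried 79.9% over the 500 loci of highest variance, 50.7% with loci scaled to unit variance and 63.4% to 65.9% with a tree left out. With a limit of 2 in place of 1, 77 loci were near 0 in cork and 11 in rhytidome. Of 86 named DEGs, 31 lost the call in some alternative, 16 of them apart from the test against a log2FC of 1 and 7 on leaving out a tree, and 0 changed sign. With no filter on low loci 11 named DEGs lost the call, all with adjusted p under 0.05. The sign turned at 8 named loci that were no DEGs. After quantile normalization the log2FC was -0.20 at *EXPA4*, -0.21 at *UGD*, 0.39 at *MYB4* LOC112035436, -0.032 at the SNF1-related kinase subunit LOC111986784, and 0.23 and 0.78 at the HXXXD-type acyltransferases LOC112036511 and LOC112022896, the latter being -0.48 to 0.27 with a tree left out (0.27 without rhytidome 68). *LTP1.4/LTP2* had 0.16 with library weights, 0.23 after median centring and -0.25 to 0.29 with a tree left out. *RGP2* had 0.14 after median centring and -0.17 to 0.073 with a tree left out. The cause of these changes was not tested. Counts were not used, so depth sets no stated limit here, and rlog understates the changes of loci with few counts.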
